A study of Mus musculus with 7 samples.

Results

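Lamp5 GABAergic neurons of the posterolateral cortical amygdala (plCoA), an olfactory region of the amygdala, were represented by 546 nuclei. These were drawn from 4132 GABAergic nuclei and from 51115 nuclei in all. A nucleus was a barcode with at least 1000 genes and at most 30000 UMIs (unique molecular identifiers, each counting a captured RNA molecule). It was called GABAergic with at least 3 UMIs of Gad1 and Gad2 together, the enzymes that make GABA, and at most 1 UMI of the vesicular glutamate transporters Slc17a7 and Slc17a6 together. A GABAergic nucleus was then a member with at least 2 UMIs of Lamp5, at most 2 of Sst, at most 1 of Vip, at most 1 of Pvalb and at most 2 of Foxp2. The members were thus selected on the measured levels of these 9 genes, which are given only as a description. These 9 genes were left out of the gene tests, except between domains, where they were not removed.

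The study compared the anterior (aplCoA) with the posterior (pplCoA) domain of the plCoA by single-nucleus RNA sequencing with the 10x Genomics 3' v3.1 chemistry. All mice were wild-type C57BL6J males aged 8 weeks, which were housed alone and deprived of sensory input before they were killed, with no other treatment. Each domain had 3 replicates, each from the pooled tissue of several mice, so that p-values measure the spread between pools and not between animals. Nuclei were sorted on the DNA dye DRAQ7, and the 2 libraries made from aplCoA replicate 1 were added together as a single replicate.

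Lamp5 encodes a membrane protein of the endosomal and lysosomal family. In cortex and hippocampus it marks neurogliaform cells and their relatives, small interneurons that release GABA in a diffuse cloud and so act on nearby dendrites slowly, through both ionotropic GABA-A and metabotropic GABA-B receptors. Many of them carry the peptide neuropeptide Y (Npy), the secreted proteins Ndnf and reelin (Reln), or both, and most arise from the caudal ganglionic eminence (CGE). A further kind expresses Lhx6, a transcription factor of the medial ganglionic eminence (MGE), and is best known from the hippocampus.

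The 7 libraries held between 50812605 and 129624583 UMIs. The 546 members held 5166470 UMIs in all, with replicate medians from 8147 to 11703 UMIs per nucleus. The median depth of members and of other GABAergic nuclei did not differ detectably (means of the replicate medians, 9132 ± 1360 against 9160 ± 1240 UMIs, SD, n = 6, p = 0.938 in a two-sided exact permutation test on the pairs). Barcodes were shared between libraries in 315 cases, and for 7 members the barcode was also a nucleus in another library. Scrublet scores marked 40 members as doublets, which the rule kept.

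Members made up 13.2% of GABAergic nuclei (95% exact binomial interval 12.2 to 14.3%, which covers counting error only). Of the other 3586, 447 were over the limit of Sst, 417 over that of Vip, 30 over that of Pvalb and 66 over that of Foxp2. A further 9 were over more than 1 limit, and 2617 were over none but had at most 1 Lamp5 UMI. Of the 560 GABAergic nuclei with at least 2 Lamp5 UMIs, 14 were turned away by the other limits.

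The limit of 2 Lamp5 UMIs cut through a continuous range. Among the 3163 GABAergic nuclei over no limit, 2199 had no Lamp5 UMI, 418 had 1, 275 had 2, 130 had 3, 67 had 4 and 74 had at least 5, with a highest count of 12. Just inside the limit, nuclei with 2 Lamp5 UMIs held 288 CPM of Ndnf (a gene's UMIs scaled to the summed UMIs of the group, so that groups of different depth can be compared), 520 of Kit and 298 of Sv2c. Just outside it, nuclei with 1 Lamp5 UMI held 201 CPM of Ndnf, 339 of Kit and 192 of Sv2c, while those with 0 held 75.7, 92.2 and 43.8 CPM. When all GABAergic nuclei were clustered without the 9 genes of the rule, 247 members fell in a cluster of 486 nuclei and 147 in a cluster of 302. Most of the remaining nuclei of those clusters, 236 and 154, were over no limit and had at most 1 Lamp5 UMI. The other GABAergic nuclei therefore include many that clustered with the members.

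Lamp5 itself, at chromosome 2 136052239 to 136069917 (plus strand, GRCm38), stood at 313, 283 and 340.2 CPM in the members of aplCoA replicates 1, 2 and 3 and at 321, 322 and 330.3 CPM in those of pplCoA. In the other GABAergic nuclei it averaged 13.6 ± 1.24 CPM (SD, n = 6), and in microglia, which should lack it, 5.96 CPM. As means over the replicates, a Lamp5 UMI was found in 3.10 ± 0.513% of microglia (SD, n = 6) at a median of 4118 UMIs per nucleus, in 11.9% of glutamatergic nuclei at 14619 UMIs, in 2.42% of the Sst nuclei and in 28.8% of the Foxp2 nuclei. After each nucleus was thinned to 2000 UMIs, the share was 52.6% in members and 0.873% in microglia, with 477 shallower microglia left out.

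The label could be checked on genes the rule did not use. Slc32a1, the vesicular transporter that loads GABA into synaptic vesicles, stood at 41.4 ± 10.6 CPM in members and at 42.0 CPM in other GABAergic nuclei, against 1.0 CPM in glutamatergic nuclei and 1.4 CPM in microglia. Neurod2 and Tbr1, factors of glutamatergic neurons, stood at 1.44 ± 1.31 and 0.747 ± 1.32 CPM in members and at 1.12 and 1.21 CPM in other GABAergic nuclei, against 23.3 and 10.3 CPM in glutamatergic nuclei.

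**Figure D1:**
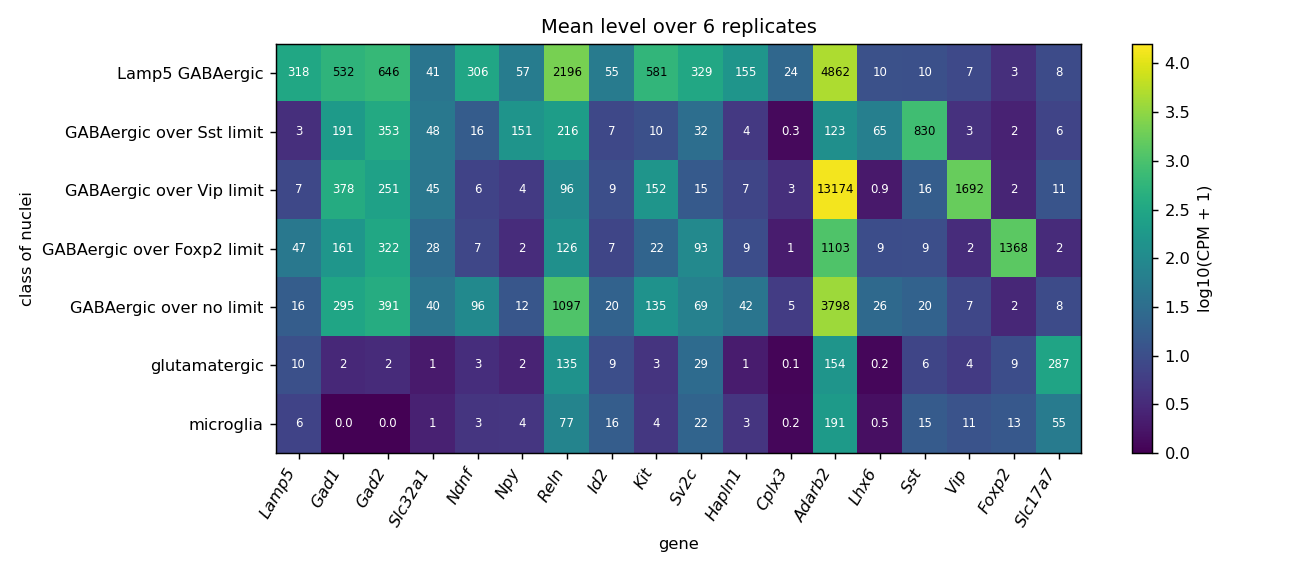
Mean CPM over the replicates (number in each cell; color, log10 of CPM + 1) of 18 genes in 7 classes of nuclei. The 9 genes of the rule other than Pvalb and Slc17a6 are shown with markers it did not use: the row of Lamp5 GABAergic nuclei is highest for Ndnf, Reln, Id2, Kit, Sv2c, Hapln1 and Cplx3, while Npy is highest in nuclei over the Sst limit and Adarb2 in those over the Vip limit.

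Against the other GABAergic nuclei, members carried the genes of neurogliaform cells at high levels. UMIs were summed per replicate for each class, so that 6 sums of members were compared with 6 sums of other GABAergic nuclei of the same libraries, with edgeR's quasi-likelihood test and the replicate as a block. A gene was called at a Benjamini-Hochberg adjusted p below 0.05 and a change of at least 1.5-fold. Of 9243 genes tested, 581 (6.29%) were higher and 830 (8.98%) lower in members. The rule places Sst, Vip, Pvalb and Foxp2 nuclei in the comparison group. Genes that travel with those 4 genes can thus be lower in members through the rule, and its part in the decreases was not tested.

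Of 25 listed genes of Lamp5 neurogliaform identity, 19 were tested, of which 15 were higher and 3 lower, with a median log2 fold change of 1.82 against 0.02 over all genes tested. A gene was tested with UMIs in at least 10% of the nuclei of either class. A gene below that share in the others, listed or not, was thus tested only where members carried it. Krt73 and Tmem182, also listed, had no UMI in members, and neither was called. The count and the median therefore describe the tested genes and not the whole list. Since the list was chosen with earlier results of these data known, they are no independent support for the name. Ndnf stood at 329, 364, 314, 241, 308 and 280.1 CPM in the members of aplCoA replicates 1 to 3 and pplCoA replicates 1 to 3, and no replicate of the other GABAergic nuclei passed 76.6 CPM. Its log2 fold change was 2.06 (SE 0.067, edgeR adjusted p = 3.35e-19). Kit, the receptor tyrosine kinase for stem cell factor, ran from 425 to 692 CPM in members and from 86.3 to 132 CPM in the others, a log2 fold change of 2.32 (SE 0.063). Both genes had members and others apart in all 6 replicates, which held for 15.1% of all genes tested.

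Reelin, the extracellular matrix protein that guides neuronal migration and tunes adult synapses, stood at 2197 ± 239 CPM in members and 823 ± 77.0 CPM in the others (log2 fold change 1.37, SE 0.061). Hapln1, which links hyaluronan to proteoglycans around neurons, was at 155 ± 26.7 against 31.3 ± 5.49 CPM (2.25, SE 0.106). The transcriptional inhibitor Id2 was at 54.9 ± 17.4 against 16.6 ± 3.77 CPM (1.72, SE 0.120), and the synaptic vesicle protein Sv2c at 329 ± 33.0 against 57.6 ± 8.73 CPM (2.48, SE 0.077). For Reln, Hapln1, Id2 and Sv2c the 6 sums of members lay above the 6 sums of the others.

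Npy differed less. It stood at 73.4, 58.8 and 128 CPM in the members of the aplCoA replicates and at 31.3, 15.5 and 37.0 CPM in those of pplCoA, and the others ran from 14.8 to 47.7 CPM, so that the classes overlapped. The log2 fold change was 0.85 (SE 0.174, edgeR adjusted p = 3.14e-04), and without aplCoA replicate 3 it was 0.52 and no longer called. Against nuclei over the Sst, Vip or Pvalb limit alone the direction turned, to a called -0.63 (edgeR adjusted p = 0.0105), and without the replicate block Npy was not called. The comparison group was not low in Npy throughout, since nuclei over the Sst limit averaged 151 CPM. As means over the replicates, an Npy UMI was found in 18.2% of members against 2.2% of microglia, and an Ndnf UMI in 71.1% against 1.2%. Counted over all replicates together, 381 of the 546 members had an Ndnf UMI, 103 an Npy UMI, 69 both and 131 neither.

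The 3 identity genes that were lower were Tafa1 (log2 fold change -0.86), Lhx6 (-1.69) and Npy2r (-2.07), a presynaptic receptor for neuropeptide Y.

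Among all genes, the 12 with the largest increase were Fam83b (log2 fold change 2.83), Cplx3 (2.75), Pawr (2.74), Has2os (2.67), Chst7 (2.65), Crispld1 (2.50), Sv2c (2.48), Fbxo32 (2.47), C87487 (2.44), Dkk2 (2.38), Pdlim5 (2.36) and Kit (2.32). Cplx3, a complexin that controls vesicle fusion and marks neurogliaform cells, ran from 11.8 to 34.5 CPM in members and from 1.33 to 5.76 CPM in the others. Crispld1, a secreted protein, was the more abundant at 271 ± 14.7 against 48.1 ± 9.13 CPM. Dkk2, a secreted modulator of Wnt signaling, spread widely among the members' replicates, from 13 to 68.7 CPM. That all 6 replicates agreed in direction was a condition for naming these genes, which 28.2% of all genes tested met, and is no further result.

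The 8 genes with the largest decrease were Tmem132cos (log2 fold change -4.91), Trhde (-4.38), Tmem132c (-4.37), Plpp4 (-4.32), Crhbp (-4.27), Elfn1 (-4.25), Il1rapl2 (-4.17) and Kctd8 (-4.11). Il1rapl2, a synaptic adhesion protein of the interleukin receptor family, stood at 44.1 ± 34.0 CPM in members and 798 ± 127 CPM in the others. Elfn1, a postsynaptic protein of Sst interneurons that recruits presynaptic glutamate receptors, was at 4.22 ± 3.31 against 89.5 ± 18.9 CPM. Trhde, an enzyme that degrades thyrotropin-releasing hormone, was at 6.86 ± 2.67 against 158 ± 21.0 CPM.

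**Figure D2:**
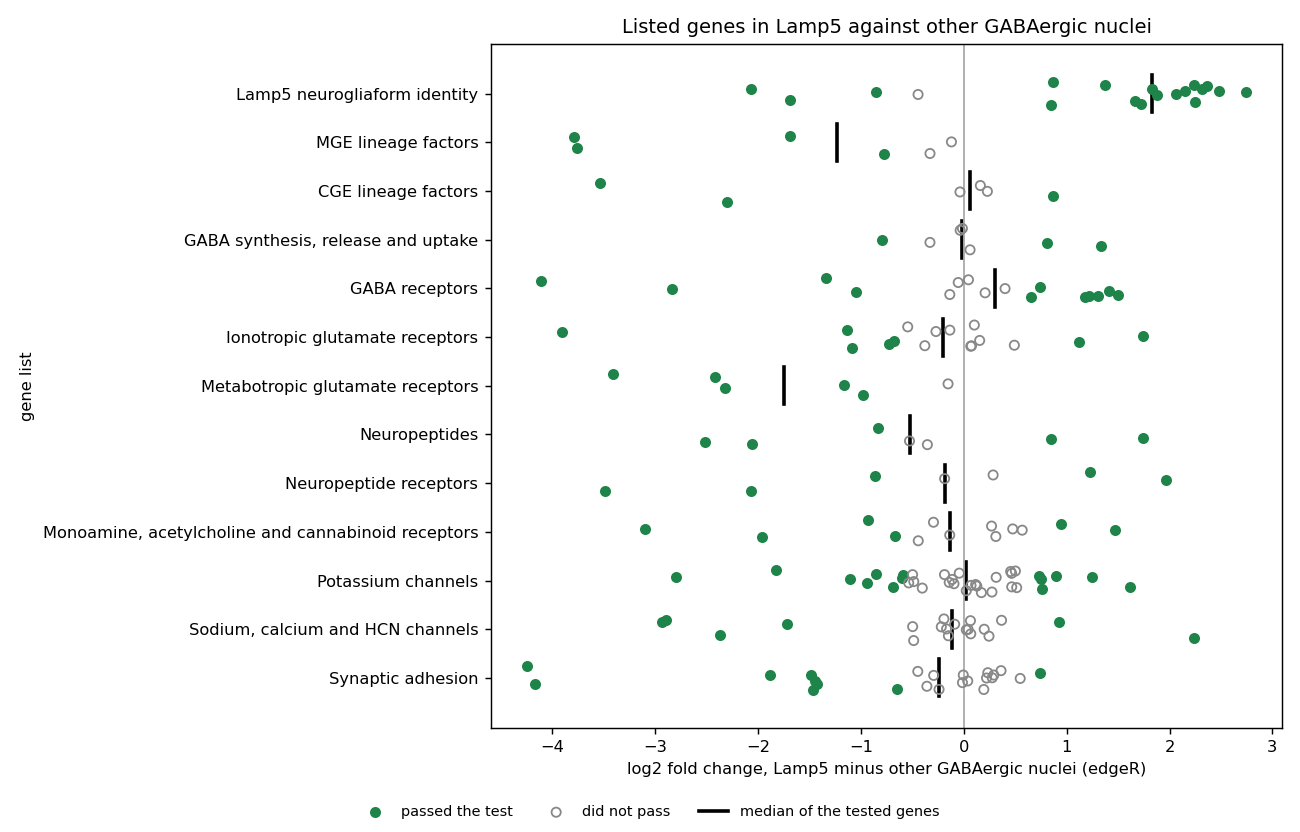
Log2 fold change (x axis, edgeR, members minus other GABAergic nuclei) of each tested gene of 13 lists (rows). Filled points passed the test, open points did not, and bars mark the list medians: the identity list sits to the right, at a median of 1.82, and metabotropic glutamate receptors and MGE factors to the left, at -1.74 and -1.23. Genes that travel with Sst, Vip, Pvalb or Foxp2 can be lower in members through the rule, which was not tested. The lists were chosen with earlier results of these data known.

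The rule put Sst and Pvalb nuclei in the comparison group. Lineage factors of the MGE that travel with Sst or Pvalb can thus be lower in members through the rule, which was not tested. Among GABAergic nuclei over no limit, Lhx6 stood at 27.0 CPM with 0 Lamp5 UMIs and at 15.1 with 1. It stood at 9.01 CPM with 2 and at 10.1 with at least 5. Of 6 tested MGE factors, 4 were lower, with a list median of -1.23. Among them, Satb1 stood at 5.16 ± 2.21 against 66.4 ± 13.9 CPM, Sox6 at 42.2 ± 20.1 against 526 ± 48.2 CPM, and Lhx6 had a log2 fold change of -1.69. CGE factors were mixed, with 1 of 6 higher, 2 lower and a median of 0.06. Prox1, which CGE interneurons keep into adult life, was higher at 127 ± 30.4 against 69.7 ± 15.7 CPM (log2 fold change 0.87, SE 0.086), but it was not called against nuclei over the Sst, Vip or Pvalb limit alone (0.07). Npas1 and Npas3 were lower, by log2 fold changes of -3.54 and -2.30. Adarb2, the commonest CGE marker, did not pass the test at 4862 ± 539 CPM in members (log2 fold change 0.23), and it averaged 13174 CPM in nuclei over the Vip limit. Of 5 tested factors of the lateral ganglionic eminence, Bcl11b (0.81) and Sp9 (0.77) were higher.

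Genes of the machinery for GABA moved in both directions. Of 7 tested genes of GABA synthesis, release and uptake, 2 were higher and 1 lower. The GABA transporter Slc6a11 stood at 49.0 ± 8.58 CPM in members and 17.7 ± 2.26 CPM in the others (log2 fold change 1.33, SE 0.128). Slc12a2, a chloride importer, was lower (-0.79).

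Of 16 tested GABA receptor genes, 7 were higher and 4 lower, with a median of 0.30. Gabrd, the delta subunit of extrasynaptic receptors that sense ambient GABA, stood at 35.8, 23.9, 37.9, 26.2, 23.3 and 26.4 CPM in the members of aplCoA replicates 1 to 3 and pplCoA replicates 1 to 3, and at 8.77 to 18.2 CPM in the others. Members and others did not overlap, and the log2 fold change was 1.31 (SE 0.161, edgeR adjusted p = 1.66e-07). Gabra5, an alpha subunit of slow and extrasynaptic receptors, ran from 68.0 to 103 CPM against 23.0 to 35.1 CPM (1.41, SE 0.112).

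The GABA-B receptor subunit Gabbr2 was at 1005 ± 109 against 344 ± 26.3 CPM, and its auxiliary subunit Kctd16 was higher by a log2 fold change of 1.22. A related auxiliary subunit, Kctd8, was lower, at 13.1 ± 6.29 against 258 ± 25.7 CPM. Gabrb2 (1.17) and Gabra4 (0.66) were also higher, and the remaining lower genes were Gabra3 (-1.04), Gabra2 (-1.34) and Gabrg1 (-2.83).

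Metabotropic glutamate receptors stood out in the other direction. Of 6 tested genes, 5 were lower and none higher, with a median of -1.74. Grm8, a presynaptic autoreceptor, was at 47.5, 0, 45.5, 46.5, 23.3 and 10.6 CPM in the members and at 306 to 402 CPM in the others (log2 fold change -3.41, SE 0.173). Grm7 (-2.32), Grm3 (-1.17) and Grm4 (-0.98) were also called.

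Of 16 tested ionotropic glutamate receptor genes, 2 were higher and 5 lower. Grin2a, an NMDA receptor subunit, stood at 3781 ± 681 against 1090 ± 170 CPM (log2 fold change 1.75, SE 0.052), and the kainate receptor subunit Grik1 stood at 2458 ± 203 against 1097 ± 81.1 CPM. Grik3, another kainate subunit, was lower at 9.12 ± 8.89 against 149 ± 21.5 CPM, and the AMPA receptor subunit Gria1 was lower by a log2 fold change of -1.13.

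Among peptides, 2 of 7 tested genes were higher and 3 lower. Pnoc, the precursor of nociceptin, stood at 109, 82.7 and 112 CPM in the aplCoA members and at 45.6, 71.8 and 84.5 CPM in the pplCoA members, above every sum of the others, which ran from 16.9 to 36.2 CPM (log2 fold change 1.74, SE 0.118). Tac2 (-2.52), Penk (-2.06) and Vgf (-0.84) were lower. Of 7 tested peptide receptors, Hcrtr2, a receptor for the arousal peptide orexin, was higher at 309 ± 40.1 against 78.3 ± 12.5 CPM, and Oprm1, the mu opioid receptor, at 197 ± 58.3 against 78.4 ± 9.38 CPM. The delta opioid receptor Oprd1 was lower at 1.40 ± 1.88 against 19.4 ± 2.43 CPM, together with Npy2r and Npy1r (-0.87).

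Of 13 tested receptors for monoamines, acetylcholine and cannabinoids, 2 were higher and 4 lower. The noradrenaline receptor Adra1a was at 327 ± 60.5 against 112 ± 10.1 CPM (log2 fold change 1.47, SE 0.081), and the serotonin receptor Htr2a at 98.9 ± 23.2 against 48.7 ± 3.85 CPM (0.94, SE 0.095). The serotonin receptor Htr2c was lower at 70.1 ± 16.2 against 617 ± 71.4 CPM (-3.10, SE 0.089), and the muscarinic receptor Chrm2 was lower by -1.96. Nos1, which makes nitric oxide, was higher at 64.1 to 89.3 against 30.2 to 53.3 CPM. The members were uneven in Nos1: in their clusters 1 to 5, described below, it stood at 62.1, 51.3, 17.9, 260 and 103 CPM. Subunits of the nitric oxide receptor, Gucy1a1 (-1.90) and Gucy1b1 (-0.84), were lower.

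Channels and adhesion genes moved in both directions. Of 35 tested potassium channel genes, 6 were higher and 8 lower, with a median of 0.02. Kcna4, which carries a transient current that delays firing, was higher at 44.4 ± 15.6 against 17.1 ± 1.13 CPM, and Kcnc2, which supports fast firing, was lower at 321 ± 53.4 against 1114 ± 183 CPM. Of 20 tested sodium, calcium and HCN channel genes, 2 were higher and 4 lower. Cacna2d1 stood at 2002 ± 253 against 413 ± 64.9 CPM, while Cacna2d2 (-2.89) and Scn9a (-2.94) were among the lower ones. Of 23 tested adhesion genes, Lrrtm2 (0.74) was higher and 8 were lower, among them Nrxn3 at 3542 ± 186 against 9656 ± 648 CPM.

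Markers of other cell types were detected in members and in the others, at uneven levels. Of the astrocyte list, Slc1a3 (log2 fold change 1.34) and Slc1a2 (0.60) were higher in members, and the summed level of its 6 genes ran from 222 to 445 CPM in members and from 137 to 227 CPM in the others, with no gene at 0. With marked doublets removed, Slc1a3 was still called at 1.62 and Slc1a2 was not at 0.557. The oligodendrocyte gene Mbp (-0.92) was lower. Microglial markers summed to 82.7 to 211 CPM in members and 113 to 165 CPM in the others, and vascular markers to 3.68 to 44.4 CPM and 5.30 to 9.75 CPM. The part of such RNA in the differences above was not tested. Of 8 tested mitochondrially encoded genes none was called, although the mitochondrial share of UMIs was above that of the others in each of the 6 replicates (two-sided exact permutation of the pairs, p = 0.0312, the lowest value 6 pairs allow).

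The members were not uniform. Clustered alone, again without the 9 genes of the rule, they fell into 5 clusters, which are described here by their leading genes with no test, since the same genes formed them. Cluster 1 held 241 nuclei (44.1%) and was led by Npy, Fstl4 and Htr1f; Npy stood there at 132 CPM, against 11.3 CPM in all other members. Cluster 2 held 155 nuclei (28.4%) and was led by C87487, Dock5 and Dkk2, with Reln at 5364 CPM and Ndnf at 592 CPM. In clusters 1 and 2 Kit stood at 721 and 762 CPM and Adarb2 at 5705 and 5155 CPM.

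Cluster 3 held 80 nuclei (14.7%) and was led by Ntng1, Cdh18 and Grm8. Ndnf stood at 247 CPM and Npy at 3.37 CPM there, and 15 of its nuclei were marked doublets. Among the 23 clusters of all GABAergic nuclei, 27, 25 and 12 of its nuclei fell in 3 clusters and at most 4 in any other. Cluster 5 held 16 nuclei (2.93%), led by Gpc5, Rorb and Slc39a12, had the highest median depth at 12376.5 UMIs, and 14 of its 16 nuclei were marked doublets. Gpc5 and Slc39a12 are known from astrocytes, and the cluster is left unnamed.

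Cluster 4 held 54 nuclei (9.89%) and stood apart from the rest. It was led by Mctp2, Lhx6, Sfta3-ps and Tacr1, the receptor for substance P. No Ndnf UMI was found in it, Kit stood at 19.4 CPM and Adarb2 at 689 CPM. Hapln1 reached 490.0 CPM, Nos1 260 CPM and Id2 151 CPM, the highest of the 5 clusters for all 3 genes. Among all GABAergic nuclei, 50 of the 54 fell into a single cluster of 160 nuclei, apart from the pair of clusters that held most members.

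**Figure D3:**
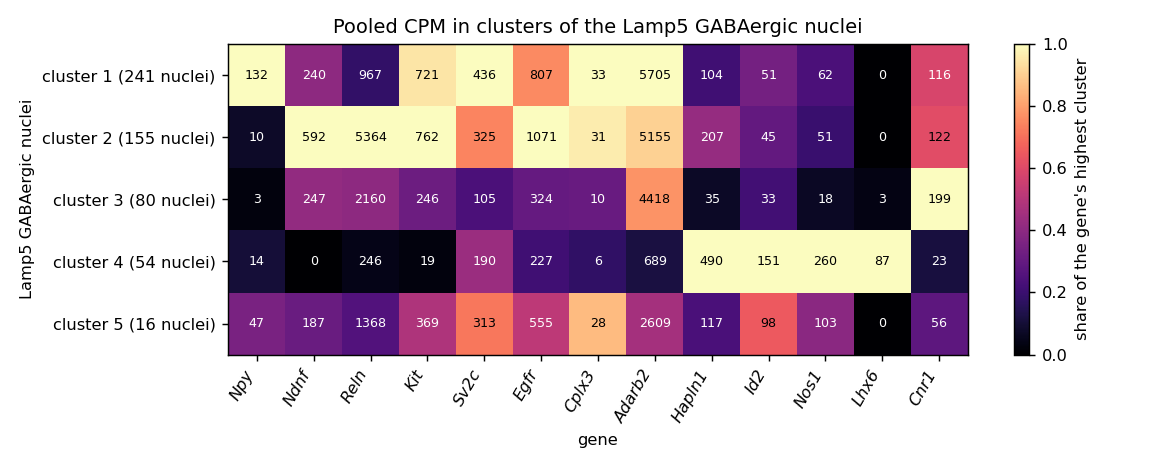
Pooled CPM (number in each cell) of 13 genes (columns) in the 5 clusters of the Lamp5 GABAergic nuclei (rows), colored by the share of the highest cluster for that gene. Npy is at 132 CPM in cluster 1, Reln at 5364 CPM in cluster 2, and cluster 4 alone combines Lhx6 at 87.2 CPM with Ndnf at 0.

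Lhx6, which the rule did not use, was then used to split the members. At least 2 Lhx6 UMIs were found in 14 members, 13 of them in cluster 4, and none in 522, while 10 members with 1 UMI were set aside. An Lhx6 UMI was found in 42.6% of the nuclei of cluster 4, so that the rest of that cluster was among the 522. The split therefore parts nuclei by detected UMIs and does not part cluster 4 from the other members. The 14 nuclei fell as 5, 0 and 2 in the aplCoA replicates and 3, 3 and 1 in those of pplCoA, so that the comparison used 5 replicates and left out aplCoA replicate 2. Their 158062 UMIs in all make this a shallow comparison. Of 9672 genes tested with edgeR and a replicate block, 275 (2.84%) were called, 66 (0.682%) higher and 209 (2.16%) lower with Lhx6. A gene was tested with UMIs in at least 10% of the nuclei of either group, so that a gene rare in a group passed through the other alone. The median of all genes was -0.49 under the TMM scaling used, and under DESeq2 size factors, where it was -0.11, 110 genes were higher and 107 lower. DESeq2 itself gave 95 higher and 78 lower, so that the balance of directions rests on the scaling.

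The genes with the largest increase were Mctp2 (log2 fold change 3.50), Sfta3-ps (3.48), Tacr1 (3.35), Gm45341 (3.32), Zfp804b (3.01), Tmem132d (3.00), Antxr1 (2.98) and Cntnap3 (2.88). For those seen in under 10% of the nuclei without Lhx6, the increase is description only. Mctp2, a calcium-binding membrane protein, stood at 240.4 CPM (38 UMIs) with Lhx6 and at 17.4 CPM without. Zfp804b stood at 3182 against 335 CPM, the best sampled of these genes at 503 UMIs. Tacr1 stood at 139 CPM (22 UMIs) against 10.1 CPM.

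CGE factors were lower in the nuclei with Lhx6, in 5 of 5 tested genes with a list median of -2.81. Adarb2 stood at 493 CPM (78 UMIs) with Lhx6 and 4848 CPM without (log2 fold change -4.21, SE 0.383, edgeR adjusted p = 3.01e-24), lower in 5 of 5 replicates. The nuclear receptor Nr2f1 had 1 UMI with Lhx6, 12.3 times fewer per UMI sampled than without (95% counting interval 2.20 to 488), and its relative Nr2f2 had 2 UMIs, 5.98 times fewer (1.64 to 49.6). Prox1 (-2.48) and Npas3 (-1.72) were also called. With DESeq2 size factors 3 of these 5 remained called, Adarb2, Nr2f1 and Prox1, and with DESeq2 itself 1, Adarb2. Of the 5, Adarb2 alone was called with each replicate left out, and Npas3 ranged from -9.80 to -0.80 over the alternatives. None of 5 tested MGE factors passed the test, among them Nkx2-1, an MGE patterning factor, with 3 UMIs against 9.

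The identity genes divided. Of 17 tested, 7 were lower with Lhx6 and none higher, with a median of -1.92, or -0.90 with the genes at 0 UMIs set at their bound of 3 UMIs, where all genes tested had -0.49 and -0.43. With DESeq2 size factors 3 were lower and 1 higher. Kit had 1 UMI, 93.5 times fewer than without Lhx6 (95% counting interval 16.8 to 3695), and Ndnf had 1 UMI, 49.7 times fewer (8.90 to 1964). Reln stood at 424 against 2294 CPM (log2 fold change -3.27, SE 0.390). Npy, with 1 UMI and 10.7 times fewer (1.90 to 423), and Sv2c (-1.39) were called with TMM but not with DESeq2 size factors. Hapln1 stood at 361 against 146 CPM and did not pass with TMM (0.95, edgeR adjusted p = 0.170), but passed with DESeq2 size factors (1.37).

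The 8 genes with the largest decrease were all at 0 UMIs in the 14 nuclei, so that only bounds can be given, computed at 3 UMIs over the group. All 8 passed the filter through the nuclei without Lhx6 alone and are description only. Sema3e, a repulsive guidance cue, was at least 9.66-fold lower, against 183 CPM without Lhx6. Has2os was at least 5.12-fold and the kainate receptor subunit Grik4 at least 4.82-fold lower. For the others, Apbb1ip, Gm4128, 4930587E11Rik, Rnf128 and Adra1b, the bounds were smaller, at least 2.73-fold for Rnf128 and for Adra1b, a noradrenaline receptor.

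Other listed genes also differed between the nuclei with and without Lhx6 UMIs. The adhesion gene Cntnap4 was higher with Lhx6 at 1101 against 128 CPM (log2 fold change 2.70, SE 0.358), and so were Kctd8 (2.67) and Gria1 (1.06). Gria1 was called with pplCoA replicate 3 left out but with no other replicate left out, and Kctd8 was not called without aplCoA replicate 1 or without pplCoA replicate 1. Kctd16 was lower at 645 against 2267 CPM (-2.34), the potassium channel partner Kcnip4 at 506 against 3943 CPM (-4.67), and the cannabinoid receptor Cnr1 at 25.3 CPM, 4 UMIs, against 123 CPM (-2.64). Cnr1 was not called with DESeq2, without aplCoA replicate 1 or without aplCoA replicate 3.

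Turning to the domains, members took a similar share of GABAergic nuclei in both. The share was 12.4, 14.4 and 13.2% in the aplCoA replicates and 15.5, 14.1 and 10.3% in those of pplCoA, and the ranges overlapped. The means were 13.3 ± 0.997% and 13.3 ± 2.70% (SD, n = 3), a difference of 0.0482 percentage points (exact permutation test, two-sided, p = 1.0, where 3 against 3 cannot go below 0.1). The 2 libraries of aplCoA replicate 1 gave 10.7 and 16.0%, a wider gap than that between the domains. Thinned to 5000 UMIs per nucleus, the shares were 10.2 ± 0.719 and 10.5 ± 1.31% (p = 0.9, exact permutation test). The share of members with at least 2 Lhx6 UMIs was 2.86, 0 and 1.94% in aplCoA and 2.48, 5.36 and 2.17% in pplCoA (exact permutation test, p = 0.4). With at least 1 Lhx6 UMI the share was lower in aplCoA by 2.11 percentage points without overlap (exact permutation test, p = 0.1, the smallest possible).

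**Figure D4:**
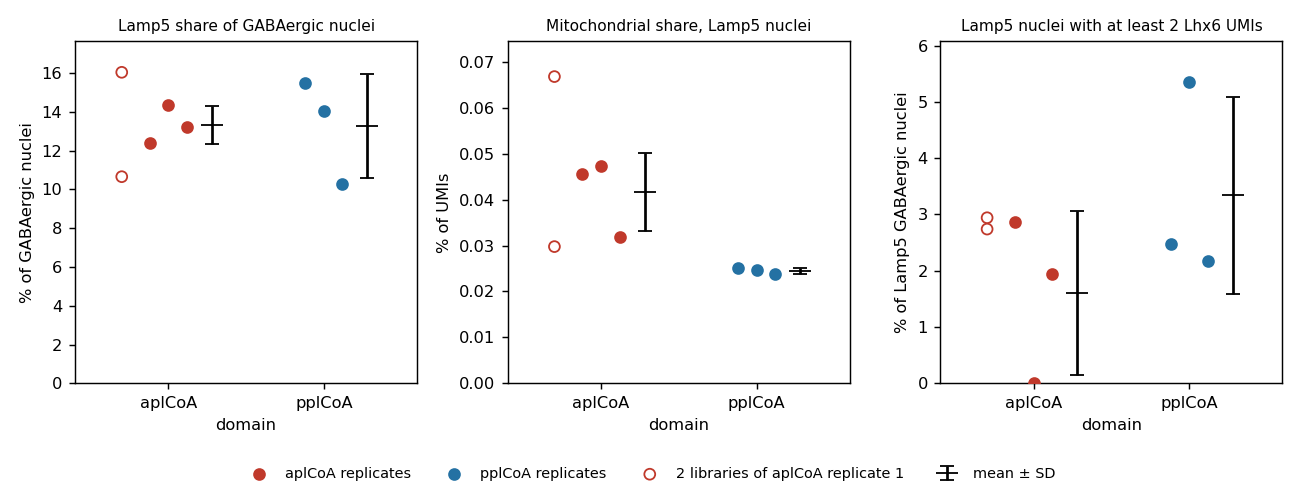
Share of GABAergic nuclei that were members, mitochondrial share of the members' UMIs, and share of members with at least 2 Lhx6 UMIs (y axes, %), by domain (x axis). Filled points are replicates, open points the 2 libraries of aplCoA replicate 1, and bars mean ± SD (n = 3): the member share and the Lhx6 share overlap between domains, while the mitochondrial share is 0.0320 to 0.0474% in aplCoA and 0.0238 to 0.0251% in pplCoA.

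The share of mitochondrial RNA was higher in the aplCoA replicates. The mitochondrial share of the members' UMIs was 0.0456, 0.0474 and 0.0320% in aplCoA and 0.0251, 0.0246 and 0.0238% in pplCoA, with no overlap (exact permutation test, p = 0.1, the smallest possible), and the other GABAergic nuclei showed it as well, at 0.0339 ± 0.00729 against 0.0189 ± 0.000711%. In members it stood at 0.0298% in the first and 0.0668% in the second library of aplCoA replicate 1. That gap was wider than the gap between the domain means, 0.0416 and 0.0245%. Among the clusters of members, the shares of 1 did not overlap between domains. Cluster 2 held 39.4, 26.7 and 27.2% of the members in aplCoA and 21.5, 19.6 and 19.6% in pplCoA, without overlap, while the shares of the other 4 clusters overlapped. These shares are given with no test, since 1 of the 10 leading genes of cluster 2, Hs6st3, was itself called between domains (log2 fold change 1.49). The part of the mitochondrial share and of the cluster shares in the gene differences that follow was not tested.

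Between domains, 181 of 9090 tested genes (1.99%) were called in members with edgeR's quasi-likelihood test on 3 against 3 sums, 121 higher in aplCoA (1.33%) and 60 higher in pplCoA (0.66%). DESeq2 called 62, 31 in each direction, and without pplCoA replicate 1 the balance was 78 to 97. Of the 121, 16 were named as ribosomal protein genes, against 84 of all genes tested. For 117 of the 121 the level in the aplCoA members was below that of free RNA, taken from barcodes under 100 UMIs, which held for 4610 of the 9090 genes tested. Of the 60 higher in pplCoA, 10 were below free RNA in the pplCoA members. Free RNA differed in the direction of the call for 105 of the 121 and 52 of the 60. The other GABAergic nuclei of the same libraries did so for 121 of 121 and 60 of 60. Counts over all genes tested were not taken for these directions, nor for free RNA against the pplCoA members. The direction counts and the count in the pplCoA members are therefore description only. Of the 60 higher in pplCoA, 37 carried the names of predicted genes, against 1 of the 121 and 826 of all genes tested. The count rested on single pools: it was 20 without aplCoA replicate 1, 46 without pplCoA replicate 2, 86 without aplCoA replicate 2, and 23 with the first library alone for aplCoA replicate 1. With the second library alone it was 231, and without any one of the other 3 replicates 175 to 180.

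Under the main settings, Npy was the listed gene with the largest difference between domains, but not under every alternative. With DESeq2 the log2 fold change was 1.96 for Cntnap5b and 1.57 for Npy. Without aplCoA replicate 3 it was 1.79 for mt-Nd4 and 1.21 for Npy. At chromosome 6 49822710 to 49829507 (plus strand, GRCm38), Npy stood at 73.4, 58.8 and 128 CPM in the aplCoA members and at 31.3, 15.5 and 37.0 CPM in the pplCoA members, without overlap. Such a separation was seen in 18.6% of all genes tested. The log2 fold change was 1.57 (SE 0.271, edgeR adjusted p = 0.0016), and it was called with each replicate left out in turn, but not with the first library alone for aplCoA replicate 1 (1.35) nor with at least 3 Lamp5 UMIs required (1.25). In the other GABAergic nuclei Npy was at 41.2 ± 6.71 against 26.1 ± 11.5 CPM, and in free RNA at 65.9 ± 6.28 against 83.8 ± 43.8 CPM. The difference in members was not shown to exceed that in the others, since the test of the difference between both gave 0.71 (SE 0.354, edgeR adjusted p = 0.949).

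A further granule peptide, the secretogranin Scg2, stood at 66.6, 49.6 and 47.7 CPM in aplCoA and at 25.3, 19.4 and 15.9 CPM in pplCoA, without overlap (log2 fold change 1.30, SE 0.258, edgeR adjusted p = 0.0050). In free RNA it was at 167 against 91.4 CPM. Of the neuropeptide list, 2 of 5 tested genes were higher in aplCoA and none in pplCoA, with a median of 1.13 against 0.01 over all genes; without aplCoA replicate 1, Scg2 was not called. Pnoc (0.68, edgeR adjusted p = 0.069) and Cplx3 (1.03, 0.066) did not pass, although both were called with the likelihood ratio test, the test of the study (adjusted p = 0.0444 and 0.0233 in edgeR).

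The remaining genes of neurogliaform identity gave no call between domains. Of 17 tested, Npy was higher in aplCoA and 16 did not pass, with a median of 0.01. Ndnf was at 336 ± 25.5 against 276 ± 34.0 CPM (log2 fold change 0.23, SE 0.131) and Reln at 2326 ± 292 against 2067 ± 83.8 CPM (0.11, SE 0.101). No gene passed among 7 of GABA synthesis and uptake, 14 GABA receptors, 15 ionotropic and 4 metabotropic glutamate receptors, and 12 receptors for monoamines, acetylcholine and cannabinoids.

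Other listed genes were called 1 or 2 to a list. Oprm1 was lower in aplCoA, at 148, 129 and 179.8 CPM against 206, 289 and 229.9 CPM (log2 fold change -0.70, SE 0.153, edgeR adjusted p = 0.0098). The potassium channel Kcnb2 stood at 283 ± 47.7 against 434 ± 71.5 CPM (-0.65, SE 0.141), and the adhesion gene Cntnap5c at 266 ± 27.4 against 424 ± 83.1 CPM (-0.72, SE 0.138). Cntnap5b (1.45) was called although its replicates overlapped, since pplCoA replicate 1, at 128 CPM, lay above aplCoA replicate 1, at 126 CPM. Its log2 fold change was 3.87 without pplCoA replicate 1 and 0.93 without aplCoA replicate 2. Each of these 4 lost its call with at least 1 replicate left out.

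Mitochondrially encoded genes had a median of 0.87, with mt-Nd4 (1.53) and mt-Co1 (0.81) called of 8 tested. Neither was called with DESeq2, without aplCoA replicate 1, without aplCoA replicate 2 or with the first library alone for aplCoA replicate 1, and mt-Nd4 was at 0.97 and not called without pplCoA replicate 1. mt-Co1 stood at 101, 118 and 81.2 CPM in aplCoA and 58.3, 52.4 and 44.9 CPM in pplCoA, and at 77.7 against 42.9 CPM in the other GABAergic nuclei.

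The 10 genes with the largest increase in aplCoA without overlap were led by Nanp, a phosphatase of sialic acid synthesis, with 43 UMIs in the aplCoA members and 1 in those of pplCoA, a ratio of 28.9 after scaling for depth (95% counting interval 4.92 to 1169). Rtl8b followed with 34 against 3 UMIs, a ratio of 7.62 (2.40 to 38.8). Both genes passed the filter of 10% of nuclei through the aplCoA members alone. The others were Exosc4 (log2 fold change 2.29), H1fx (2.18), Ndufa2 (1.93), Ubqln2 (1.93), Ndufa1 (1.87), C1qbp (1.82), Mea1 (1.81) and Npy. Ndufa1 and Ndufa2, subunits of respiratory complex I, were also higher in free RNA of aplCoA, at 76.1 against 52.1 and 141 against 121 CPM.

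Of the 10 genes with the largest increase in pplCoA, most bore predicted or clone names. They were Gm29642 (log2 fold change -1.88), Gm48683 (-1.77), Gm49878 (-1.64), D030068K23Rik (-1.63), Gm15520 (-1.45), Gm15558 (-1.30), Hacd4 (-1.21), 1700037C18Rik (-1.21), Csmd2os (-1.20) and Gm45645 (-1.17). Hacd4, an enzyme of very long chain fatty acid synthesis, stood at 35.2, 20.2 and 36.8 CPM in aplCoA and 61.7, 85.4 and 76.6 CPM in pplCoA, and at 46.1 against 55.2 CPM in the other GABAergic nuclei.

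Calls that held with each replicate left out numbered 17 of 181. Chosen after these fits were seen, they were, higher in aplCoA, Nanp, Npy, Ndufa13 (log2 fold change 1.51), Rpl3 (1.41), Hspa8 (1.21), Gapdh (1.14), Ubb (1.05), Gm42418 (0.94), Ppia (0.94) and Hsp90aa1 (0.92), and, higher in pplCoA, 1700109K24Rik (-0.84), Galnt14 (-0.94), Plxdc2 (-0.95), Gm28750 (-1.16), 4921511I17Rik (-1.16), Hacd4 and D030068K23Rik. Hspa8 and Hsp90aa1 are heat shock chaperones. Hspa8 stood at 243 ± 34.8 against 109 ± 43.0 CPM in members and at 182 against 93.6 CPM in the other GABAergic nuclei. Gapdh, a glycolytic enzyme used by every cell, was at 209 ± 22.3 against 90.3 ± 24.8 CPM and at 178 against 91.6 CPM in the others, with 999.5 against 870.0 CPM in free RNA. Plxdc2, a membrane receptor, was at 152 ± 43.9 against 286 ± 67.7 CPM and at 218 against 261 CPM in the others. In free RNA it was at 297 against 388 CPM, above the members in both domains.

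**Figure D5:**
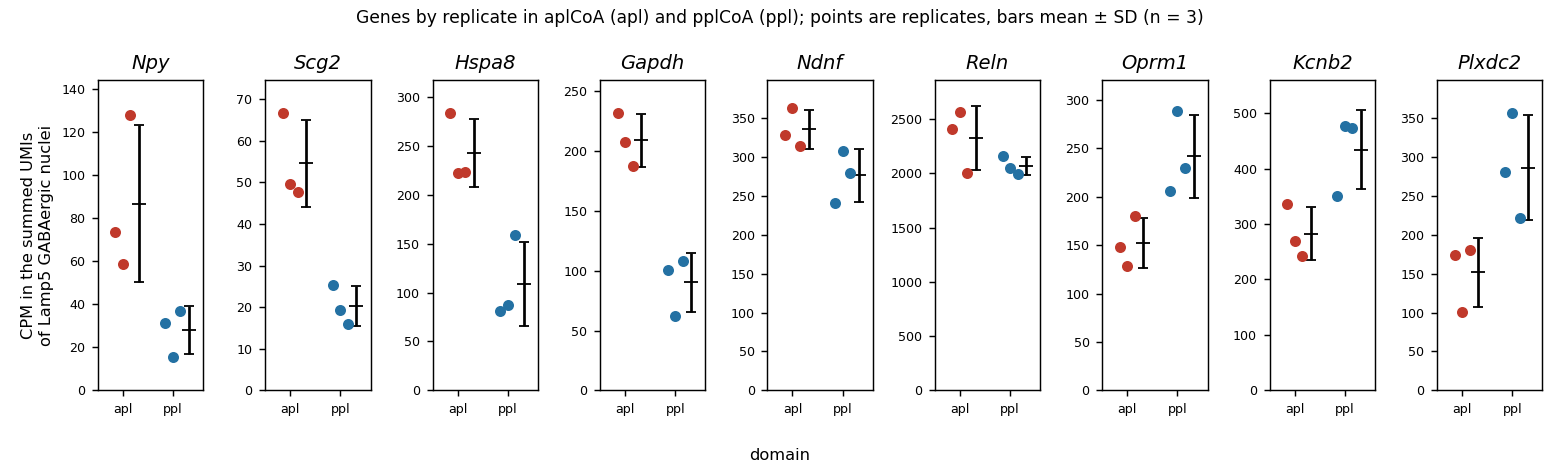
CPM in the summed UMIs of the members (y axes) by domain (x axis) for 9 genes; points are replicates and bars mean ± SD (n = 3). Npy, Scg2, Hspa8 and Gapdh lie higher in aplCoA without overlap, Oprm1, Kcnb2 and Plxdc2 lower without overlap, and Ndnf (log2 fold change 0.23) and Reln (0.11) did not pass the test.

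Whether the domain difference of members departed from that of the other GABAergic nuclei was tested directly. Of 9243 genes, 1 was called (0.0108%), Sgcz, the zeta sarcoglycan of a membrane complex (chromosome 8 37522298 to 38661508, minus strand, GRCm38). It stood at 3157, 3359 and 3170 CPM in the aplCoA members and at 3485, 3535 and 3229 CPM in those of pplCoA, close together. In the other GABAergic nuclei it was at 2402, 2532 and 2661 against 2126, 1615 and 1742 CPM. The difference between both log2 fold changes was -0.60 (SE 0.105, edgeR adjusted p = 0.0368). The call was lost under 11 of 14 alternatives.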

How the data were processed

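The authors aligned the reads of 7 libraries to mm10 with Cell Ranger 5.0.0, counted intronic reads and collapsed duplicates. The deposited values are unfiltered UMI counts of 32285 genes per barcode, of which 78 rows share a symbol with another row.

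Nuclei and members were found by the limits given above; doublets, the 1% of highest Scrublet scores per 1000 nuclei of a library, were kept. Cell types are rebuilt here and may differ from those of the study. Counts were summed per replicate and class, and a gene was tested with UMIs in at least 10% of the nuclei of a compared class. The test was edgeR 4.0.16 (quasi-likelihood, TMM) in R 4.3.3, with DESeq2 1.42.0 as an alternative. Each SE given was worked back from that test, as the size of the log2 fold change divided by the square root of the F statistic. CPM values are from summed counts. Scrublet scores were computed with scanpy 1.11.5. Clusters used 2000 variable genes, Pearson residuals, 30 principal components and 15 neighbours (scikit-learn 1.9.0). They were found with leidenalg 0.10.2 at resolutions of 1.0 (all GABAergic) and 0.6 (members). The scripts were tested on simulated counts.

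Against other GABAergic nuclei, the 12 highest and 8 lowest called genes were named where all 6 replicates agreed in direction and the higher class had at least 20 CPM, leaving out predicted genes. Between domains 10 were named in each direction where replicates did not overlap, for Lhx6 8 in each direction and for the difference between differences those of smallest p. Genes of 26 lists (pathways, lineages, cell types) were added. The members and lists were chosen with earlier results of these data known. Alternatives were other scaling, tests, filters, limits and thresholds, each replicate or library left out, and the replicate number as a block. Coordinates are those of GRCm38.

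Some listed genes are not reported here by name, while counts and medians of their lists include them.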

Additional observations from a re-analysis of the deposited data

Results flagged for a closer look

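Sgcz was the single gene whose difference between domains was called as unequal in members and in other GABAergic nuclei, by an interaction term in edgeR's quasi-likelihood fit with the replicate as a block. The difference between both log2 fold changes was -0.60, of 9243 genes tested, where the median of all genes was -0.03. It ran from -0.70 without pplCoA replicate 1 to -0.48 without pplCoA replicate 2, and was negative under each of the 14 alternatives. The call was kept with doublets removed (-0.66), without pplCoA replicate 1 and without pplCoA replicate 3 (-0.61). With DESeq2 the adjusted p was 1.00.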

How the results depend on the processing

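The number of members was set by the Lamp5 limit, at 964 with at least 1 UMI and 271 with at least 3. The difference in the share of members, 0.0482 percentage points, turned to -0.231 when nuclei were thinned to 5000 UMIs, to -0.530 with the first library alone for aplCoA replicate 1, and ran from -1.46 to 1.16 with each replicate left out. The difference in the Lhx6 share ran from -2.37 to -0.727 over its alternatives, against -1.74.

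The 1411 genes called between members and other GABAergic nuclei were 2150 without the filter on low genes and 1371 to 1435 with each replicate left out, and 1151 were called in every such fit. Of the other alternatives, the lowest count was 1329 and the highest 1780, against nuclei over the Sst, Vip or Pvalb limit. Against depth-matched nuclei it was 1332.

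The 181 domain genes were 65 at an adjusted p below 0.01, 62 with DESeq2, 292 with the likelihood ratio test, 29 with at least 3 Lamp5 UMIs, 23 with the first and 231 with the second library alone for aplCoA replicate 1, and 20 to 180 with each replicate left out. The Lhx6 comparison, with 275 calls, gave 166 at an adjusted p below 0.01, 173 with DESeq2, 525 without the replicate block, and 136 (without pplCoA replicate 2) to 253 with a replicate left out, among them 169 without pplCoA replicate 1, 177 without aplCoA replicate 1 and 166 leaving out aplCoA replicate 3. Calls shared by every such fit numbered 96.

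The difference between differences, with 1 call and 485 genes at an unadjusted p below 0.05, gave 0 calls at an adjusted p below 0.01, 0 with DESeq2 size factors (481 at an unadjusted p below 0.05), 0 with DESeq2 (109), 0 without the replicate block (369), 0 with the second library alone for aplCoA replicate 1 (497), 2 with the first alone, 7 with doublets removed, 29 without the filter, and 0 to 32 with each replicate left out. Causes of these changes were not tested.

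The labels do not say that replicate numbers pair the domains. The deviations of same-numbered replicates correlated at 0.0325, -0.0172 and 5.8e-04, and replicate 2 of aplCoA correlated best with replicate 1 of pplCoA. With 3 replicates per domain, such values cannot decide whether the numbers pair. With the replicate block the domain calls were 208 (134 higher, 74 lower), the share difference was 0.0482 and the Lhx6 share difference -1.74. Without the block, 1363 genes were called between members and others, and Npy was not (adjusted p = 0.0769 in edgeR).

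Of the called genes given by name, 75 of 79 kept their call against other GABAergic nuclei under every alternative in which they were tested (Npy1r was tested in 13 and Oprd1 in 14 of 15), 19 of 32 for Lhx6 and 8 of 40 between domains. Against nuclei over the Sst, Vip or Pvalb limit, Npy turned to -0.63 and Adarb2, which was not called, to -0.049. No other named gene changed direction. Of the genes not called, Pnoc was called between domains under 3 alternatives, Cplx3 under 2, and Hapln1 for Lhx6 under 3. The Lhx6 comparison had 14 nuclei in the smaller class, which limits its depth.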
